A study of Homo sapiens with 18 samples.

Results

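The 10 genes described here encode the glycosyltransferases that start the glycosphingolipids and lead into their globo-series and ganglio-series branches, and they are 10 of the 61541 genes listed in the deposited count tables. They were matched by Ensembl identifier to the GENCODE GRCh38 symbol. They were chosen by their role in the pathway, with the fold changes of these same libraries between sodium propionate (SP) and control already known, so the values of the 4 comparisons with control are given as a description, and calls of members in them are counted without being read as a test. RNA was sequenced from A549, an established human lung adenocarcinoma line of epithelial origin that the labels call wild type. One count table holds untreated cells at 3 days (Control 3D) and cells kept in 5 mM SP for 3 days (SP 3D) or 12 days (SP 12D). The other table holds untreated cells at 24 hours (Control 24H) and cells kept in 5 mM SP for 3 hours (SP 3H) or 24 hours (SP 24H). Each of the 6 groups has 3 libraries, 18 in all, and all of them come from the same line grown in serum-containing medium. SP 12D has its control at 3 days and SP 3H has its control at 24 hours, so in these comparisons SP and time in culture cannot be told apart. The paper calls the libraries of the shorter times biological replicates. For the longer times nothing read here says that the libraries of a group came from separate cultures, so there the p-values measure the spread between these libraries, which may be technical. In RNA from whole cultures, fewer cells that express a gene and less RNA per cell cannot be told apart.

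Glycosphingolipids are membrane lipids made of a ceramide anchor and a sugar chain that grows one sugar at a time in the Golgi. UGCG adds glucose to ceramide, and B4GALT5 or B4GALT6 adds galactose to give lactosylceramide, the branch point of the pathway. From there A4GALT makes Gb3, the globo-series lipid that Shiga toxin binds, whereas ST3GAL5 makes GM3, the first ganglioside, so the 2 enzymes draw on the same lipid. These lipids sit mainly in the outer leaflet of the plasma membrane, where they take part in cell recognition, signalling and adhesion.

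Promoter sequences from RefSeq (GRCh38.p14) were found for 7 of the 10 genes, A4GALT, B3GALNT1, UGCG, B4GALT5, ST3GAL5, ST8SIA1 and GBGT1, and not for B4GALT6, B4GALNT1 and B3GALT4. The 250 bases before the first-listed RefSeq start are printed for 3 genes. Their SP 24H, SP 3D and SP 12D libraries all lay above their controls. So did those of 24.6%, 30.5% and 28.7% of all tested genes, each comparison taken singly. The window of each of the 3 genes holds no exon of its gene. Each is written 5′ to 3′ on the strand of the gene, and capitals mark GC boxes, the letters GGGCGG or their reverse complement CCGCCC. The windows are chr22:42720871-42721120 on the minus strand for A4GALT, chr9:111896564-111896813 on the plus strand for UGCG and chr20:49713879-49714128 on the minus strand for B4GALT5. The A4GALT window lies inside the GENCODE limits of its gene (42692121 to 42721298), between exons and downstream of the outermost annotated start. Those of UGCG and B4GALT5 lie just outside the limits of their genes.
A4GALT: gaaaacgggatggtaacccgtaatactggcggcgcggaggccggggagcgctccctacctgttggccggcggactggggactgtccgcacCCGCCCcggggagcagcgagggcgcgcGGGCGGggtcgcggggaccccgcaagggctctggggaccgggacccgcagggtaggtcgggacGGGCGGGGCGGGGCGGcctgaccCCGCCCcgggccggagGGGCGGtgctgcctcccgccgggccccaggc
UGCG: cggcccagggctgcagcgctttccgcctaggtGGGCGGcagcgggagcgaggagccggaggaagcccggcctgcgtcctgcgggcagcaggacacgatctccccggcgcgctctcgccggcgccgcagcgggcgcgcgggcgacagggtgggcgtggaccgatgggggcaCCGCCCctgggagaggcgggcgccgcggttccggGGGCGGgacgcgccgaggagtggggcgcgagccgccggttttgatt
B4GALT5: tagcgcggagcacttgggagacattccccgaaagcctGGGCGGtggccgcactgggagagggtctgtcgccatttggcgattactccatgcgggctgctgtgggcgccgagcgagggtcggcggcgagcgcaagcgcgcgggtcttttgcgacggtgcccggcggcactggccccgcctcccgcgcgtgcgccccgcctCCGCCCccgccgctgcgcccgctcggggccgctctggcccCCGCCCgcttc
The A4GALT window held 7 GC boxes, 3 of which share letters in 1 run, and the UGCG and B4GALT5 windows held 3 each. The window of ST3GAL5, whose log2 fold changes spanned the narrowest range of the tested members, also held 3, ST8SIA1 held 1, GBGT1 held 2 and B3GALNT1 held 0. Of 27305 first-listed promoters with a full window, 42.3% held at least 1. G and C made up 79.2% of the A4GALT window, 78.4% of that of UGCG and 75.6% of that of B4GALT5.

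Libraries held 14187401 to 43765330 reads counted on genes, and the median standard error (SE) of a log2 fold change was 0.20 in the table of 3 and 24 hours and 0.13 in the table of 3 and 12 days. Levels are CPM (reads scaled to library size with TMM factors), set within each table, so levels of the 2 tables are given side by side only. Epithelial markers were present, with KRT8 at 3690 CPM or more in every library, while CD3E was at 0 in all 18 libraries and PTPRC did not exceed 0.0956 CPM. Among the other marker lists, the summed fibroblast markers, led by COL1A1, stood at 15.2 to 16.4 CPM in Control 3D against 63.1 to 73.6 in SP 3D and 35.9 to 64.6 in SP 12D, and at 6.67 to 22.1 in Control 24H against 18.8 to 38.7 in SP 3H and 62.9 to 90.4 in SP 24H. COL1A2 was at 0 in all 9 libraries of the table of 3 and 12 days and 7 of 9 of the other, and DCN in 4 and 9. COL3A1 and LUM had reads in every library, at up to 4.21 and 8.82 CPM, and PDGFRB did not exceed 0.688 CPM. The summed leukocyte markers, mostly CD14, were above control in SP 24H (14.8 to 17.0 CPM against 3.55 to 4.39) and SP 3D (34.8 to 38.1 against 17.4 to 18.8) and overlapped it in SP 3H (2.93 to 5.08) and SP 12D (13.6 to 26.9), and the summed endothelial markers did not exceed 2.94 CPM in any library. The part of these genes in the results was not tested. One SP 12D library, replicate 3, stood apart from the other 2: it had reads on 31350 genes against 28137 and 29183, and 12718 CPM of epithelial markers against 17173 and 18074. The values it moved most are given with and without it.

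A4GALT, the Gb3 synthase (ENSG00000128274, chromosome 22, 42692121 to 42721298, minus strand), was higher in every SP library than in any control library of its table. At the early times A4GALT stood at 9.21, 11.7 and 13.6 CPM in the Control 24H libraries, at 25.0, 31.2 and 21.3 in SP 3H, and at 32.1, 42.1 and 37.9 in SP 24H. It stood at 18.4, 19.1 and 22.6 CPM in Control 3D, at 41.4, 48.6 and 43.1 in SP 3D, and at 31.8, 34.6 and 47.0 in SP 12D. The groups did not overlap in any of the 4 comparisons, and the highest SP 12D value was that of replicate 3. The fitted log2 fold change of A4GALT was 1.16 (SE 0.19) at 3 hours, 1.69 (SE 0.19) at 24 hours, 1.15 (SE 0.14) at 3 days and 0.92 (SE 0.14) at 12 days, which are 2.24-, 3.24-, 2.22- and 1.89-fold. Without SP 12D replicate 3 the log2 fold change at 12 days was 0.72. A4GALT transcripts have a high GC content (61.8%, percentile 90.5 of the tested genes), and corrected for GC content and length the 4 values were 1.00, 1.25, 0.86 and 0.74. Exons of A4GALT share 74 bases with CYB5R3 on the same strand. CYB5R3 had log2 fold changes of 0.05, 0.55, 0.37 and 0.12 at the same 4 times, each smaller than that of A4GALT.

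**Figure D1:**
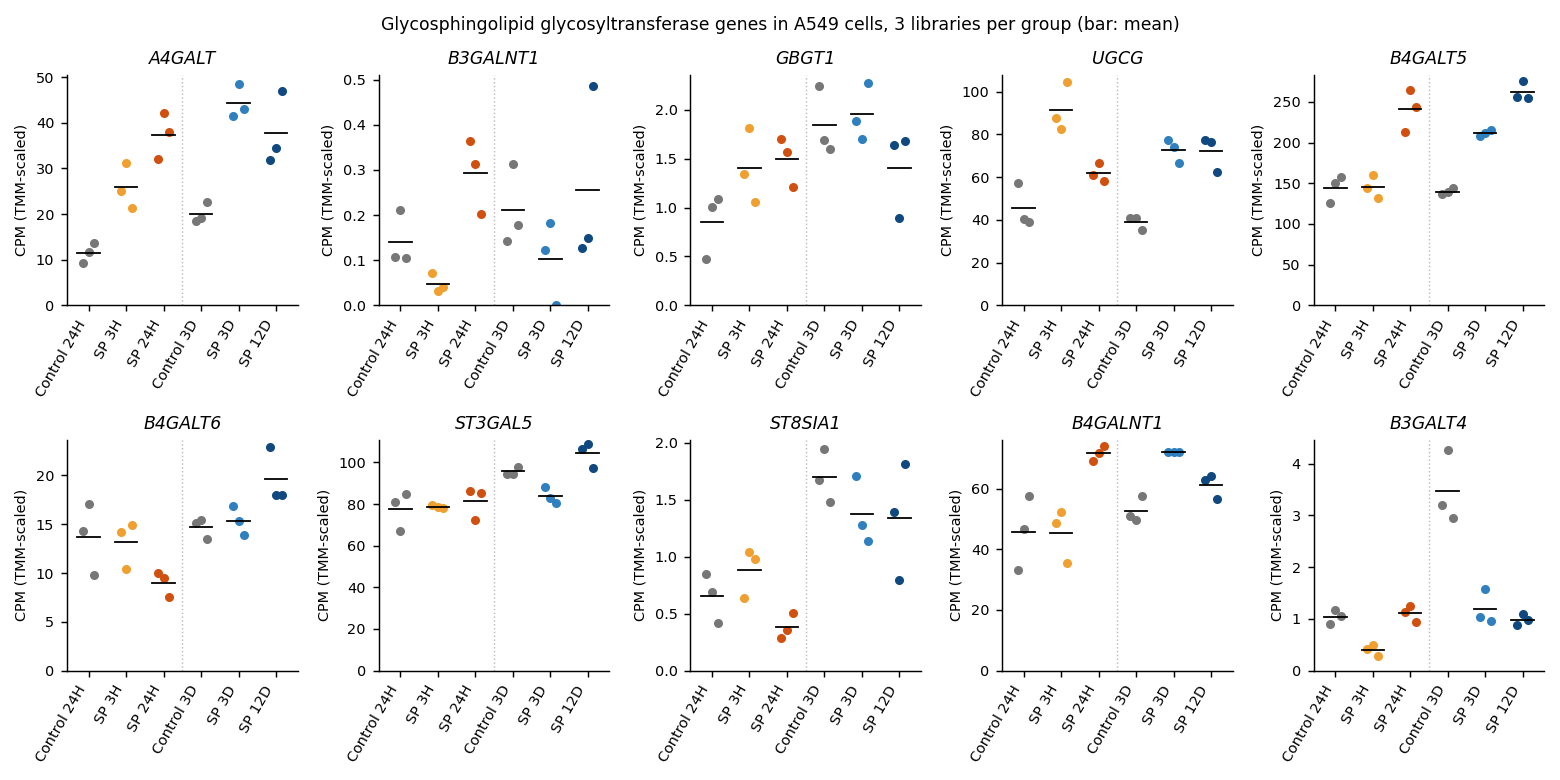
TMM-scaled CPM of the 10 genes (vertical axes, linear from 0, one panel per gene) in the 6 groups, with 1 point per library and a bar at the mean of the 3 libraries; the dotted line separates the 2 count tables. A4GALT lies between 9.21 and 13.6 CPM in Control 24H and between 32.1 and 42.1 in SP 24H, whereas B3GALT4 lies between 2.96 and 4.26 in Control 3D and between 0.957 and 1.58 in SP 3D.

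B3GALNT1, which extends Gb3 to globoside (Gb4), was close to undetected at this depth and did not pass the filter on low counts in either table (ENSG00000169255, chromosome 3). Its 3 libraries together held 9 reads in Control 24H, 3 in SP 3H and 29 in SP 24H, and 11 in Control 3D, 5 in SP 3D and 16 in SP 12D. One SP 3D library had 0 reads, which allows up to 3, and 11 of the 16 reads of SP 12D came from replicate 3. Scaled for depth, the ratio of reads to control was 0.318 at 3 hours (95% counting interval 0.0554 to 1.27), 2.16 at 24 hours (0.995 to 5.18), 0.494 at 3 days (0.135 to 1.54) and 1.34 at 12 days (0.584 to 3.19). Each of these intervals includes 1, and they cover counting error only. Between the times of SP the ratio was 6.79 from SP 3H to SP 24H (2.1 to 34.8), with all SP 24H libraries above all SP 3H libraries. From SP 3D to SP 12D it was 2.71 (0.95 to 9.47). These intervals also cover counting error only, and no test was made. The gene shares 190 exon bases with NMD3 and has a pseudogene, B3GALNT1P1, so its few reads may not all be its own.

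GBGT1 (ENSG00000148288, chromosome 9), the human counterpart of the Forssman synthase, which adds a further sugar to globoside and is largely inactive in humans, was measured with 59 to 148 reads per group. It stood at 0.476, 1.00 and 1.09 CPM in Control 24H, at 1.34, 1.82 and 1.06 in SP 3H, and at 1.70, 1.57 and 1.22 in SP 24H. The SP 24H libraries lay above all controls and 1 SP 3H library lay within them. In the longer series it stood at 1.60 to 2.25 CPM in Control 3D, 1.71 to 2.27 in SP 3D and 0.898 to 1.68 in SP 12D, both overlapping the control, with SP 12D just below SP 3D. Its log2 fold change was 0.70 (SE 0.34) and 0.77 (SE 0.33) at 3 and 24 hours and 0.07 (SE 0.27) and −0.40 (SE 0.27) at 3 and 12 days, and −0.61 at 12 days without SP 12D replicate 3. Its exons share 677 bases with an unnamed gene on the same strand, which did not exceed 0.12 CPM in any library.

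UGCG, the glucosylceramide synthase that opens the pathway (ENSG00000148154, chromosome 9, 111896814 to 111935369, plus strand), was also above control in every SP library. Its Control 24H libraries stood at 57.4, 40.5 and 39.2 CPM, those of SP 3H at 87.5, 82.4 and 104.6, and those of SP 24H at 60.8, 66.5 and 58.3. At 24 hours the lowest SP library lay only just above the highest control. In Control 3D it stood at 40.6, 40.7 and 35.05 CPM, in SP 3D at 77.6, 74.0 and 66.6, and in SP 12D at 77.3, 76.6 and 62.2. The log2 fold change was 1.00 (SE 0.16) at 3 hours, 0.44 (SE 0.16) at 24 hours, 0.91 (SE 0.10) at 3 days and 0.89 (SE 0.10) at 12 days. UGCG transcripts have a low GC content (40.4%, percentile 18.1 of the tested genes), and once the dependence of each library's counts on GC content and transcript length was removed the log2 fold change at 24 hours was 0.80.

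B4GALT5, the main lactosylceramide synthase of most tissues (ENSG00000158470, chromosome 20, 49632945 to 49713878, minus strand), had the highest level of the 10 genes in every group. Control 24H libraries stood at 126, 150 and 158 CPM, SP 3H at 144, 160 and 132, and SP 24H at 213, 265 and 244. The SP 3H libraries overlapped the control, whereas those of SP 24H lay above it. In the longer series B4GALT5 stood at 136, 139 and 144 CPM in Control 3D, 209, 212 and 216 in SP 3D, and 256, 276 and 255 in SP 12D, with no overlap between the 3 groups. Its log2 fold change was 0.01 (SE 0.13) at 3 hours, 0.74 (SE 0.13) at 24 hours, 0.60 (SE 0.07) at 3 days and 0.91 (SE 0.07) at 12 days.

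B4GALT6, which makes the same lactosylceramide (ENSG00000118276, chromosome 18, 31622246 to 31685836), stood much lower. It held 14.3, 17.1 and 9.75 CPM in Control 24H, 14.2, 10.4 and 14.9 in SP 3H and 9.99, 9.51 and 7.53 in SP 24H, so both SP groups overlapped the control, and SP 24H lay below SP 3H. Its libraries stood at 13.5 to 15.4 CPM in Control 3D, 13.9 to 16.9 in SP 3D and 18.0 to 22.9 in SP 12D, and only those of SP 12D lay above the control. The log2 fold change was −0.06 (SE 0.23), −0.60 (SE 0.23), 0.07 (SE 0.12) and 0.42 (SE 0.12) in the order of the 4 times. B4GALT6 has the lowest GC content of the 10 genes (34.4%, percentile 1.3), and with the GC and length trend removed the value at 24 hours was −0.05. Its exons share 107 bases with an unnamed gene on the other strand.

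ST3GAL5, the GM3 synthase that competes with A4GALT for lactosylceramide (ENSG00000115525, chromosome 2), had log2 fold changes within 0.19 of 0 at all 4 times, the narrowest range of the tested members. Control 24H libraries stood at 81.2, 67.0 and 84.7 CPM, SP 3H at 79.6, 78.8 and 77.9, and SP 24H at 86.1, 72.6 and 85.1. The 3 groups overlapped. In Control 3D it stood at 94.6, 94.6 and 97.9 CPM, in SP 3D at 88.3, 82.8 and 80.3, slightly lower in all 3 libraries, and in SP 12D at 107, 109 and 97.5. The log2 fold changes were 0.02 (SE 0.12), 0.07 (SE 0.12), −0.19 (SE 0.08) and 0.12 (SE 0.08).

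B4GALNT1, which makes GM2 and GD2 (ENSG00000135454, chromosome 12), overlapped the control at 3 hours and lay above it at 24 hours and 3 days. It stood at 33.1, 46.8 and 57.7 CPM in Control 24H, 48.8, 52.2 and 35.4 in SP 3H, and 69.3, 71.7 and 74.1 in SP 24H. In Control 3D it stood at 51.1, 49.6 and 57.5 CPM, in SP 3D at 72.2, 72.3 and 72.3, and in SP 12D at 62.8, 64.4 and 56.7. The log2 fold change was −0.01 (SE 0.20), 0.64 (SE 0.20), 0.46 (SE 0.08) and 0.22 (SE 0.08). B4GALNT1 has a GC content of 58.3%, and with the GC and length trend removed these values were −0.20, 0.26, 0.18 and 0.06. Its exons share 2136 bases with SLC26A10P and an unnamed gene on the other strand, neither of which exceeded 0.488 CPM in any library.

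B3GALT4, which adds galactose to give GM1 and GD1b (ENSG00000235863, chromosome 6), was the one member that stood well below control. Its 3 libraries held 67, 68 and 50 reads in Control 3D (3.20, 4.26 and 2.96 CPM), 17, 26 and 16 in SP 3D (1.04, 1.58 and 0.957 CPM) and 14, 22 and 22 in SP 12D (0.885, 1.10 and 0.975 CPM). At the early times it stood at 0.900, 1.16 and 1.05 CPM in Control 24H, 0.423, 0.486 and 0.285 in SP 3H, and 1.13, 1.25 and 0.946 in SP 24H. The SP libraries lay below the control at 3 hours, 3 days and 12 days and overlapped it at 24 hours. The log2 fold change was −1.37 (SE 0.29) at 3 hours, 0.10 (SE 0.24) at 24 hours, −1.53 (SE 0.25) at 3 days and −1.80 (SE 0.25) at 12 days. Its GC content (64.4%) is the highest of the 10 genes, and with the GC and length trend removed the value at 24 hours was −0.38 and the other 3 were −1.53, −1.87 and −2.03.

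ST8SIA1, the GD3 synthase (ENSG00000111728, chromosome 12), was measured with 38 to 91 reads per group. It stood at 0.421 to 0.847 CPM in Control 24H, 0.635 to 1.04 in SP 3H and 0.283 to 0.507 in SP 24H, and at 1.48 to 1.94 in Control 3D, 1.14 to 1.71 in SP 3D and 0.798 to 1.82 in SP 12D. The groups overlapped in every comparison with control. Its log2 fold changes of 0.52 (SE 0.35), −0.72 (SE 0.37), −0.30 (SE 0.30) and −0.33 (SE 0.30) all have 95% intervals that include 0, and without SP 12D replicate 3 the last was −0.68. It shares 161 exon bases with RNU1-149P, which was at 0 in all libraries.

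**Figure D2:**
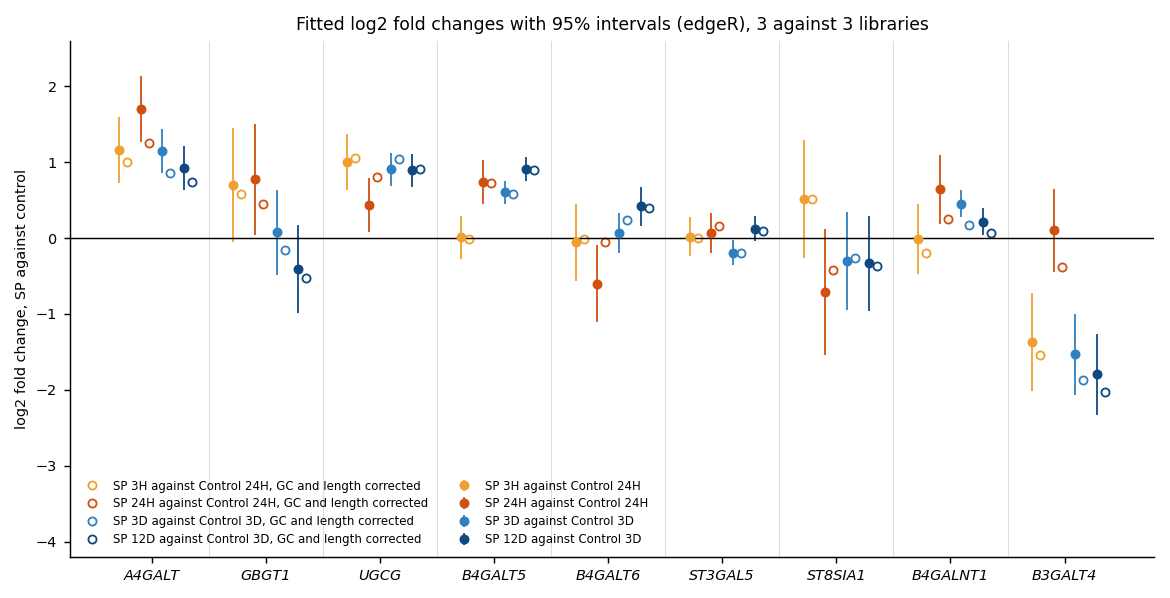
Fitted log2 fold changes (vertical axis) of the 9 tested genes in the 4 comparisons with control; filled points are edgeR estimates with 95% intervals and open points the estimates after correction for GC content and length. A4GALT lies above 0 at all 4 times (0.92 to 1.69), B3GALT4 below 0 at 3 of them (−1.80 to −1.37), and the open points of B4GALNT1 lie near 0 (−0.20 to 0.26).

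Tests covered 9 of the 10 members in both tables. At an adjusted p under 0.05 (edgeR, Benjamini-Hochberg over all tested genes), 2 members were higher and 1 lower at 3 hours, where 7.39% of all tested genes were higher and 4.11% lower. At 24 hours 3 were higher and 0 lower, against 16.8% and 12% of all tested genes. At 3 days 4 were higher and 2 lower, against 25.2% and 23.3%, and at 12 days 5 were higher and 1 lower, against 26.4% and 23.4%. In the edgeR fit, the thresholds of the study (an adjusted p under 0.0001 and at least 2-fold) took in A4GALT at 3 days and B3GALT4 at 12 days. No member passed them at 3 or 24 hours in that fit. These thresholds were passed by 8.44% of all tested genes at 3 days, 9.11% at 12 days, 0.685% at 24 hours and 0% at 3 hours. The 0 at 3 hours is the count from edgeR, which had 4367 genes at an unadjusted p under 0.05, and DESeq2 counted 415 genes at the same thresholds. The absence of members at 24 hours also depends on the method. Under the 7 alternatives that keep all libraries, A4GALT had log2 fold changes of 1.25 or more there and passed these thresholds in at least 1. At 24 hours the deviations of same-numbered SP and control libraries correlated at 0.499, 0.17 and 0.504 for numbers 1, 2 and 3. The calls above are from fits without pairing. With replicate number as a block the 119 genes past the thresholds of the study became 2, and the 3 members became 2, without B4GALNT1. The members were selected with these contrasts known, so nothing is read from their counts, and comparisons within a table share their control libraries.

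Differences between the times of SP were tested directly, although they share the SP libraries with the comparisons above. In the fit each is the difference of 2 comparisons with control, whose values were known when the genes were chosen. The p-values of members between the times of SP are therefore not independent of that choice. From SP 3H to SP 24H, 3 of the 9 tested members rose and 2 fell at an adjusted p under 0.05, where 11.7% of all tested genes rose and 8.4% fell. B4GALT5 rose by 0.73 on the log2 scale (SE 0.13, adjusted p 0.0048 by edgeR), 1.66-fold, and all SP 24H libraries lay above all SP 3H libraries. That held for 23.3% of all tested genes. B3GALT4 rose by 1.47 (SE 0.28, adjusted p 0.00681 by edgeR), on 28 reads in SP 3H and 112 in SP 24H. B4GALNT1 rose by 0.66 (SE 0.20, adjusted p 0.0484 by edgeR), and the call was lost in 7 of the 9 fits that each left out 1 library.

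UGCG moved the other way and fell by 0.57 on the log2 scale from SP 3H to SP 24H (SE 0.16, adjusted p 0.0356 by edgeR), although with the GC and length trend removed it fell by 0.26 (adjusted p 0.148). ST8SIA1 fell by 1.23 (SE 0.35, adjusted p 0.0355 by edgeR) on 65 and 38 reads, and by 0.95 (adjusted p 0.0758) with that trend removed. Leaving out 1 library ended the call of UGCG in 5 of 9 fits and that of ST8SIA1 in 6 of 9. The rise of B4GALT5 came to 0.74 with the trend removed and that of B3GALT4 to 1.15, both past the threshold. A4GALT stood higher in all SP 24H libraries than in all SP 3H libraries, but its log2 difference of 0.53 (SE 0.19, 95% interval 0.11 to 0.95) did not pass (adjusted p 0.074 by edgeR). B4GALT6, ST3GAL5 and GBGT1 had log2 differences of −0.54, 0.05 and 0.07, which did not pass.

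From SP 3D to SP 12D, 2 members rose and 0 fell, where 4.46% of all tested genes rose and 3.65% fell, and 4 members had an unadjusted p under 0.05. B4GALT5 rose by 0.31 on the log2 scale (SE 0.07, adjusted p 0.0157 by edgeR) and ST3GAL5 by 0.32 (SE 0.08, adjusted p 0.0189), and in both genes every SP 12D library lay above every SP 3D library. That held for 13.9% of all tested genes. Leaving out 1 library ended the call of B4GALT5 in 5 of 9 fits and that of ST3GAL5 in 4 of 9. A4GALT had a log2 difference of −0.23 (SE 0.13, 95% interval −0.51 to 0.05, adjusted p 0.325 by edgeR). Without SP 12D replicate 3 the difference was −0.43, at an adjusted p of 0.0017 by edgeR. UGCG did not pass, with a log2 difference of −0.01 (95% interval −0.23 to 0.20), nor did B4GALT6 at 0.35, B4GALNT1 at −0.24, B3GALT4 at −0.26, ST8SIA1 at −0.03 (−0.38 without SP 12D replicate 3) and GBGT1 at −0.48. Without that library, B4GALT6 passed as well, at 0.39 (adjusted p 0.0158 by edgeR), and 4 members passed in all.

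Read against ST3GAL5 within the same library, A4GALT stood higher in SP libraries. The ratio of A4GALT to ST3GAL5 CPM was 0.113, 0.175 and 0.161 in the Control 24H libraries, 0.315, 0.395 and 0.273 in SP 3H, and 0.373, 0.580 and 0.445 in SP 24H. It was 0.195, 0.202 and 0.231 in Control 3D, 0.469, 0.588 and 0.536 in SP 3D, and 0.298, 0.318 and 0.482 in SP 12D. Every SP library lay above every control of its table, and the highest SP 12D ratio was that of replicate 3. These ratios are a description, since A4GALT was selected with its level known. The balance of the lactosylceramide synthases stood apart in SP 24H. Per kilobase of exon, B4GALT5 stood 9.61- to 17.7-fold above B4GALT6 in Control 24H, 9.69- to 16.9-fold in SP 3H and 23.3- to 35.5-fold in SP 24H, and 9.87- to 11.7-fold in Control 3D, 13.5- to 17.0-fold in SP 3D and 12.2- to 16.8-fold in SP 12D. The low value of B4GALT6 in SP 24H was the one that moved to −0.05 (log2 fold change) with the GC and length trend removed.

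**Figure D3:**
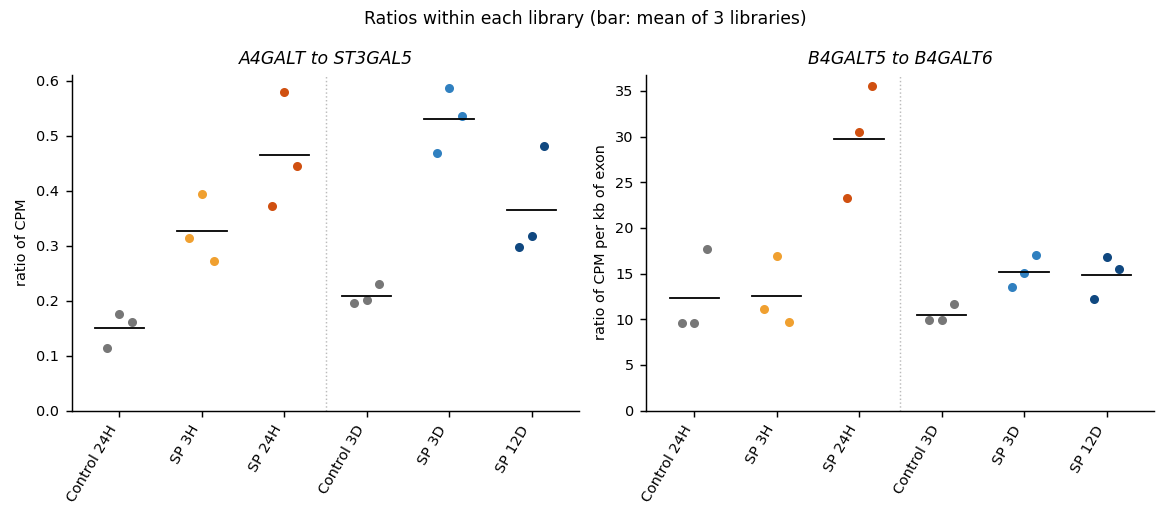
Ratio of A4GALT to ST3GAL5 CPM (left) and of B4GALT5 to B4GALT6 CPM per kilobase of exon (right) in each of the 18 libraries, with a bar at the mean of the 3 libraries of a group and a dotted line between the 2 count tables. The A4GALT ratio is 0.113 to 0.231 in the control libraries and 0.273 to 0.588 in the SP libraries, and the B4GALT5 ratio is highest in SP 24H (23.3 to 35.5).

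Set side by side per kilobase of exon, 5 of the 6 best expressed members kept one order of level in all groups, and A4GALT moved among them. In Control 3D the order was B4GALT5 (mean 29.6 CPM per kilobase, SD 0.81, n = 3), UGCG (8.50, SD 0.71), B4GALNT1 (6.68, SD 0.53), A4GALT (5.97, SD 0.66), ST3GAL5 (5.87, SD 0.12) and B4GALT6 (2.84, SD 0.20). A4GALT overlapped both B4GALNT1 and ST3GAL5 there. In SP 3D A4GALT was in place 3 at 13.2 (SD 1.13, n = 3), with all libraries above those of B4GALNT1 (9.16, SD 0.0060) and below those of UGCG (15.9, SD 1.23). In Control 24H it was in place 5 at 3.43 (SD 0.66, n = 3), below ST3GAL5 (4.76, SD 0.58), and in SP 24H in place 3 at 11.1 (SD 1.501), above B4GALNT1 (9.09, SD 0.31). B3GALT4, GBGT1, ST8SIA1 and B3GALNT1 took the lower 4 places in every group, the highest group means being 1.47 and 0.504 CPM per kilobase for B3GALT4 in Control 3D and SP 3D. Exon lengths are those of all annotated exons of a gene and may exceed what A549 cells use. They were 16300 bases for ST3GAL5, 4567 for UGCG and 3358 for A4GALT. The longest transcripts of these genes have 6180, 3959 and 2321 bases. The order above therefore depends on the length used, and the places of ST3GAL5, UGCG and A4GALT need not hold per longest transcript.

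The 82 genes of 5 further lists of the pathway were read in the same fits to show what surrounds the members. Of the 69 that passed the filter in the table of 3 and 24 hours, 10 rose and 1 fell at 3 hours (adjusted p under 0.05 by edgeR), where 7.39% of all tested genes rose and 4.11% fell, and 18 rose and 7 fell at 24 hours, where 16.8% rose and 12% fell. Of the 70 tested in the table of 3 and 12 days, 32 rose and 12 fell at 3 days, beside 25.2% and 23.3% of all tested genes, and 31 rose and 11 fell at 12 days, beside 26.4% and 23.4%. These shares are also the background of the counts of each list below. The median log2 fold change over all the listed genes was 0.13, 0.06, 0.22 and 0.18 at the 4 times, against 0.00, −0.01, −0.02 and 0.00 over all tested genes.

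Ahead of UGCG in the pathway, ceramide supply had 13 of 15 genes tested, of which 5 rose and 2 fell at 3 days and 7 rose and 0 fell at 12 days. The ceramide synthase gene CERS1 rose 3.92-fold at 3 days (adjusted p 1.1e-06 by edgeR) and 3.68-fold at 12 days, but its exons share 2579 bases with GDF1. These log2 fold changes of CERS1, 1.97 and 1.88, were as low as 1.245 and 1.249 under the alternatives that keep all libraries. CERS4 rose 4.32-fold at 24 hours (adjusted p 0.000347 by edgeR), and SPTLC2, a subunit of serine palmitoyltransferase, rose 1.47-fold at 3 hours (adjusted p 0.00822 by edgeR). SPTLC3 of the same enzyme fell at 3 days (log2 fold change −0.89), and CERS2 fell at 24 hours (−0.30, adjusted p 0.0432 by edgeR), a call that was lost in 8 of the 9 fits without 1 library, without the filter on low counts (adjusted p 0.168 by edgeR) and with only the 2 groups compared (0.0683). In the list of other ceramide-related genes, which includes ceramidases, 4 of the 8 tested rose and 0 fell at 3 days. UGT8, which makes galactosylceramide, rose 9.04-fold at 3 days (24 reads in Control 3D and 204 in SP 3D, adjusted p 8.83e-07 by edgeR), 4.92-fold at 24 hours and 5.68-fold at 12 days (log2 fold change 2.51, and 2.31 without SP 12D replicate 3). ACER2, a ceramidase, rose 2.06-fold at 3 hours, SGMS1, a sphingomyelin synthase, fell at 24 hours (log2 fold change −0.43), and GAL3ST1, which sulphates galactosylceramide, rose at 24 hours (0.80) and 3 days (0.41) and fell at 12 days (−0.42). With the GC and length trend removed the rises of GAL3ST1 came to 0.22 and 0.01 and did not pass.

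Downstream of lactosylceramide, further transferases had 9 of 19 tested genes up and 4 down at 3 days, and 8 up and 5 down at 12 days. ST6GALNAC3, a sialyltransferase of the later ganglio-series, rose 5.13-fold at 3 days (adjusted p 3.85e-05 by edgeR), 4.73-fold at 12 days (log2 fold change 2.24, and 1.78 without SP 12D replicate 3) and 2.57-fold at 24 hours. FUT2 rose 2.30-fold at 3 hours (adjusted p 0.0409 by edgeR), a call lost in 5 of the 9 fits without 1 library and with only the 2 groups compared (adjusted p 0.0773). FUT1 fell at 3 days (log2 fold change −0.85), ST3GAL3 fell at 12 days (−0.83) and GCNT2 fell at 24 hours (−0.48). Among 13 genes of lipid transport, Golgi help and sugar donors, 5 rose and 3 fell at 3 days. PLEKHA8, which carries glucosylceramide to its Golgi site of use, rose 1.69-fold at 3 hours and 1.47-fold at 3 days, and GLTP, a glycolipid transfer protein, rose 1.85-fold at 12 days. CMAS, which activates sialic acid, fell at 24 hours (log2 fold change −0.69) and 3 days (−0.55), GNE, which starts sialic acid synthesis, fell at 3 hours (−0.61), and SLC35A2, the UDP-galactose carrier, rose 1.27-fold at 24 hours. With the GC and length trend removed, SLC35A2 (log2 fold change 0.08), GCNT2 (−0.27) and SGMS1 (−0.16) did not pass at 24 hours, nor did GCNT2 and SGMS1 with the replicate block (adjusted p 0.0867 and 0.0569 by edgeR). Of the 9 fits without 1 library, 8 lost SLC35A2, 7 GCNT2, 6 SGMS1 and 2 ST6GALNAC3 at 24 hours, 4 lost ACER2 at 3 hours, and 1 lost GLA, a gene of the next list, at 24 hours.

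Of the 17 tested genes of glycosphingolipid breakdown, 0 passed at 3 hours, while 6 rose and 2 fell at 24 hours, 9 rose and 3 fell at 3 days, and 6 rose and 3 fell at 12 days. ARSA, which removes sulphate from sulphatide, rose 2.097-fold at 24 hours, 2.08-fold at 3 days (adjusted p 6e-07 by edgeR) and 1.99-fold at 12 days. GALC, which degrades galactosylceramide, fell by 1.02, 1.18 and 1.08 on the log2 scale at the same times. GLA, the galactosidase that removes the sugar A4GALT adds, fell by 0.54 at 24 hours (adjusted p 0.0104 by edgeR) and by 0.35 at 3 days (adjusted p 0.011), and had a log2 fold change of −0.11 at 12 days that did not pass. Some of these genes share exon bases with neighbours: CERS2 (1726, with SETDB1 and an unnamed gene), ST3GAL3 (2126), PLEKHA8 (1117), GLA (557, with RPL36A), GALC (392), SGMS1 (357) and SLC35A2 (223, with PQBP1). PLEKHA8, ACER2, GLTP and GCNT2 each have a pseudogene, so their counts may not all be their own.

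**Figure D4:**
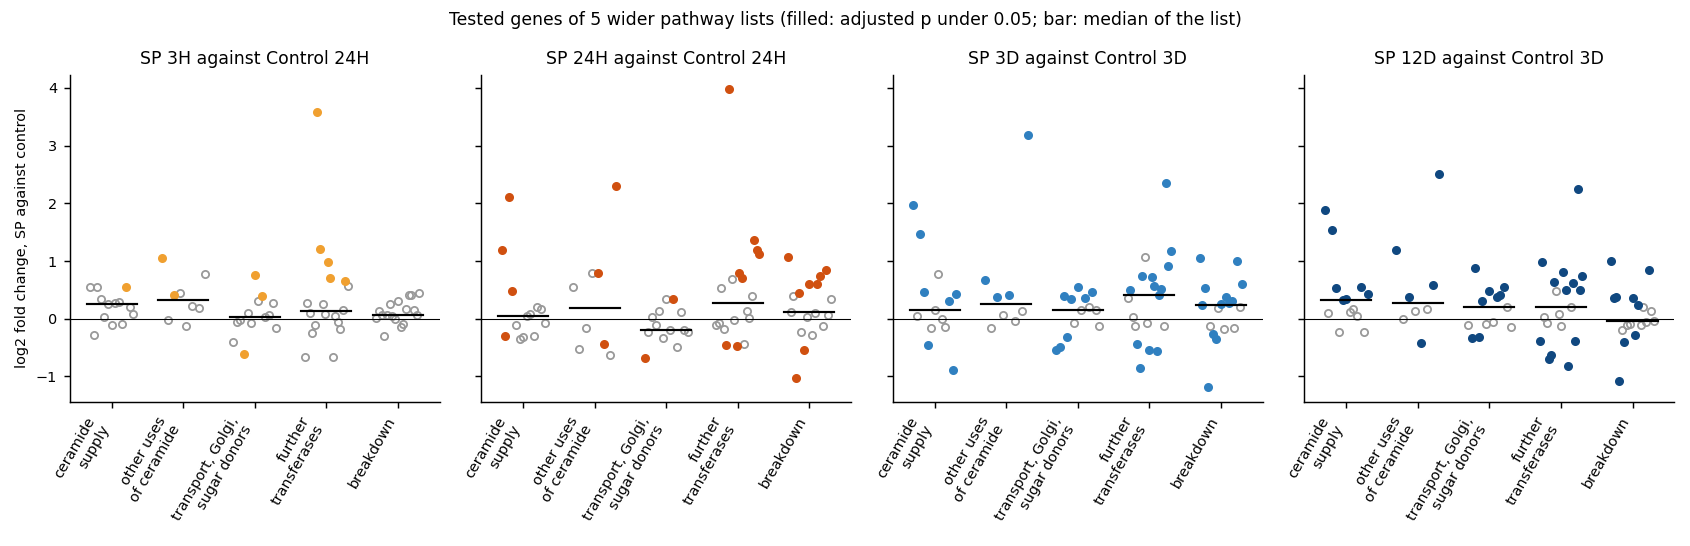
Log2 fold changes (vertical axis) of the tested genes in the 5 wider pathway lists, one panel per comparison with control; filled points passed an adjusted p of 0.05 and bars are list medians. Filled points number 11 at 3 hours, 25 at 24 hours, 44 at 3 days and 42 at 12 days; the highest points are FUT1 at 3 and 24 hours (3.58 and 3.97, from 5 reads in Control 24H, named after its values were seen) and UGT8 at 3 days (3.18).

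The genes whose pattern over the libraries was most like that of A4GALT were found among 11279 genes, by the smaller of the 2 Pearson correlations of log2 CPM over the 9 libraries of each table. They were RCOR2 (0.985), RASSF4 (0.981), ASMTL (0.981), VWA5B2 (0.979), RTN2 (0.977) and NECTIN2 (0.977). RCOR2, a corepressor subunit, had log2 fold changes of 2.13, 3.19, 1.73 and 1.42 in the order of the 4 times, and NECTIN2, a cell adhesion molecule, had 0.68, 1.11, 0.90 and 0.63. Their GC content was 56.1% to 66.7% and that of A4GALT 61.8%, above the median of 48.6% over tested genes. Of the members, B4GALT5 was placed 985th by this measure (0.774), B4GALNT1 1230th (0.723) and UGCG 2159th (0.473), and ST3GAL5 and B4GALT6 had a negative correlation in 1 table each. The correlations run over SP and control libraries together, so a gene that also rose in SP can score high through that alone. These are the libraries whose fold changes were known when A4GALT was chosen. The places are a description, and shared regulation was not tested.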

How the data were processed

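The starting point was 2 deposited tables of raw read counts per Ensembl gene, which cover 6 groups of 3 RNA-seq libraries from A549 cells. Per the labels and the paper, the authors used the NEBNext Ultra kit and paired-end sequencing, STAR 2.7.9a on GRCh38 and featureCounts, and DESeq2 1.36.0 in R 4.2.1 for their own tests. Strandedness and the treatment of multi-mapping reads are not given in the sources used here, so exon overlaps and pseudogenes of members and of named pathway genes are given. Of 61541 identifiers, 61369 matched GENCODE v44.

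Tests on the deposited counts used edgeR 4.0.16 under R 4.3.3 (filterByExpr with a minimum count of 10, TMM factors of 0.957 to 1.037, robust quasi-likelihood, all 9 libraries of a table in 1 fit, Benjamini-Hochberg over 17377 or 17775 genes), and DESeq2 1.42.0 was an alternative, along with RLE factors, no filter, 2 groups only, a replicate block, a correction for GC content and length, and leaving out each library. The procedure was tested on simulated data. Library depth was 14187401 to 43765330 counted reads, and the common biological coefficient of variation was 0.199 in the table of 3 and 24 hours and 0.0996 in the other. With 3 against 3 libraries an exact permutation test cannot go below p = 0.1, so none was used.

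The members and lists were chosen with earlier results of these data known. Genes of the wider lists were to be named where they were among the 3 largest changes in a direction (adjusted p under 0.05, mean count of 50 or more). The text gives the first of each direction, except 1 that is not reported here, and others only beside a member. The 6 genes most like A4GALT were taken from genes whose mean count reached 100 in each table. Residuals of same-numbered SP 24H and Control 24H libraries correlated at 0.499, 0.17 and 0.504 for numbers 1, 2 and 3. As each was above 0.1, a fit with the replicate number as a block was read beside the main fit. The values given are from the main fit, which is unpaired, unless the block is named. Number 2 of SP 24H correlated no better with its own number than with number 3 of the control (0.175).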

Additional observations from a re-analysis of the deposited data

Results flagged for a closer look

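In all, 7 results stood out because the difference from control was not the same at both times of SP, by the test of SP against SP in the same edgeR fit. Between 3 and 24 hours the log2 difference was −0.565 for UGCG (adjusted p 0.0356), 0.727 for B4GALT5 (adjusted p 0.0048), 0.657 for B4GALNT1 (adjusted p 0.0484), −1.234 for ST8SIA1 (adjusted p 0.0355) and 1.469 for B3GALT4 (adjusted p 0.00681). Between 3 and 12 days it was 0.308 for B4GALT5 (adjusted p 0.0157) and 0.316 for ST3GAL5 (adjusted p 0.0189). The fall of UGCG was lost with the GC and length correction (−0.26, adjusted p 0.148 by edgeR), with the replicate block and in 5 of the 9 fits without 1 library. That of ST8SIA1 was lost with the same correction, with the block and in 6 of the 9 fits. The rise of B4GALNT1 was lost with the block and in 7 of the 9. Between 3 and 12 days, B4GALT5 was lost in 5 of the 9 and ST3GAL5 in 4. The SP 3H libraries have no control of their own time. The p-values of these members are not independent of how the genes were chosen, since the values against control were known.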

How the results depend on the processing

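Over the 6 comparisons, no call of a member turned direction under any alternative. The members with SP above control at all 4 times (A4GALT, UGCG) and B3GALT4 kept their side of the threshold at 3 hours, 3 days and 12 days under all 7 alternatives other than leaving out a library. Of the 78 results for named genes of the wider lists, chosen for this check after seeing the data, 8 were lost with the GC and length correction. Genes past the study thresholds at 3 hours numbered 0, against 415 with DESeq2, 408 without a filter and 67 with the GC and length correction. At 24 hours they numbered 119, against 1192, 1131, 4 with 2 groups only, 2 with the replicate block, 345 with the GC and length correction and 236 with both, when the share higher was 77.5% in place of 90.8%. Between SP 3H and SP 24H they numbered 5 (100% higher), against 656 (84.6%) with DESeq2, 602 (85.9%) without a filter, 2 with 2 groups, 1 with the block, 69 (79.7%) with the GC correction and 24 with both. Between SP 3D and SP 12D they numbered 32 (84.4% higher), against 95 (69.5%), 167 (66.5%), 5 (60%) with 2 groups, 15 (73.3%) with the block and 11 (63.6%) with block and GC correction. Other pathway genes past an adjusted p of 0.05 at 3 hours numbered 11 (90.9% higher), against 15 (73.3%) with DESeq2, 4 (75%) with 2 groups and 17 (76.5%) with block and GC correction. All genes past 0.05, a count added after seeing the data, at 3 hours numbered 1999, against 973 with 2 groups and 3284 with block and GC correction, and between SP 3D and SP 12D 1440 against 933 with 2 groups. Members past 0.05 at 24 hours numbered 3, against 5 without a filter. Between SP 3H and SP 24H they numbered 5, against 2 with the replicate block (B4GALT5 and B3GALT4), 3 with the GC correction and 3 with both. Only SP 24H and Control 24H met the pairing check. Elsewhere libraries share only a number (correlations −0.592 to 0.377), and not every library correlated best with its own. The cause of these shifts was not tested. Leaving out 1 library gave 2 to 3, 2 to 4, 5 to 6 and 4 to 6 members in the 4 comparisons with control from the earliest to the latest, 2 to 6 between SP 3H and SP 24H, and 0 to 4 between SP 3D and SP 12D. It gave 5 to 14, 16 to 33, 38 to 50, 36 to 45, 10 to 24 and 5 to 30 other pathway genes, and 0 to 0, 1 to 87, 1099 to 2083, 1206 to 1994, 1 to 12 and 6 to 300 genes past the study thresholds, in the same order. The 4, 30 and 300 are without SP 12D replicate 3, and the 1 of 24 hours is without Control 24H replicate 2. The lowest tested members (28 to 185 reads per group) limit what could be detected.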
